A study of Rattus norvegicus with 8 samples.

Results

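The genes of sodium and potassium transport along the nephron were followed in rat kidney. The 9 genes were Slc9a3, Slc12a1, Slc12a3, Scnn1a, Scnn1b, Scnn1g, Kcnj1, Kcnj10 and Atp1b1. Every probe set whose platform annotation gave exactly 1 of these symbols was taken, which left 12 probe sets of 9 genes among 31042 tested and 31099 on the array. The 9 genes were chosen from 14217 genes with a probe set of a single symbol. Scnn1a, Scnn1g and Atp1b1 had 2 probe sets each, and the other 6 genes had 1. No filter on low values was used, so all 12 were tested. Kidney RNA of male Wistar rats had been hybridised to Affymetrix whole-genome rat arrays, with 1 rat per array. Rats bought at 4 weeks of age ate the control diet during 7 days of acclimatization. The high-phosphorus (HP) group then ate a diet of 1.2% phosphorus and the control group a diet of 0.3% phosphorus for 24 days, and both groups were given as 8 weeks old. Both diets were built on AIN-93G, a purified rodent diet. The added phosphorus was given as potassium phosphate in place of corn starch, so potassium intake and phosphorus intake cannot be told apart as causes of a difference. The study fed 5 rats per diet and chose 4 average rats of each for the arrays, by urine volume and kidney phosphorus content. The left kidney was used.

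Sodium filtered in the glomerulus is taken back by carriers in the luminal membrane of each tubule segment in turn, and the Na+/K+-ATPase of the basolateral membrane drives them all. The proximal tubule uses the exchanger NHE3, the thick ascending limb the cotransporter NKCC2, the distal convoluted tubule the cotransporter NCC, and the connecting tubule and collecting duct the epithelial sodium channel ENaC. Potassium recycles or is secreted through ROMK, and a high potassium intake is known to lower NCC activity and to raise potassium secretion further downstream.

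Values were those of the distribution free weighted method (DFW), taken as log2. DFW draws most probe sets very close together. The same probe set differed between 2 arrays by a median of only 1.93 to 2.64 millionths of a log2 unit, so differences are given below in millionths, relative to the control mean, and are not fold changes. To set probe sets side by side, each difference (HP minus control) was also divided by the pooled SD within diets, and this ratio is called the standardized difference. Levels of different probe sets were not compared with each other. With 4 arrays per diet the number of arrays limits precision, and the p-values measure the spread among these selected rats. In kidney tissue as a whole, fewer cells of a type and less RNA per cell cannot be told apart.

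Of the 12 probe sets, 1 was lower and 1 was higher in HP kidneys by the limma test at an adjusted p under 0.05. Slc9a3 fell, and Scnn1b rose on the values as deposited. Quantile normalization and median centring turned the direction of Scnn1b, but both moved the median of all probe sets downward. Over all tested probe sets, 1.13% were called lower and 2.95% higher (350 and 915 probe sets). This split moved with the scaling, to 10013 lower and 490 higher of 19903 tested after quantile normalization and to 19 lower and 78 higher after median centring. Slc12a3 lay below every control array on every HP array but did not pass the adjusted threshold. The members without overlap between the diets were thus 2 below, against 5.81% of all probe sets, and 1 above, against 7.09%. The other 9 probe sets overlapped. The median standardized difference over all 12 was -0.41, with 58.3% lower, and over all tested probe sets it was -0.21, with 57.7% lower. After quantile normalization the median was -1.12 over the 6 members that could be tested and -2.01 over all probe sets that could be, and after median centring it was -0.96 over the members and -0.94 over all probe sets. The results below concern single genes.

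**Figure D1:**
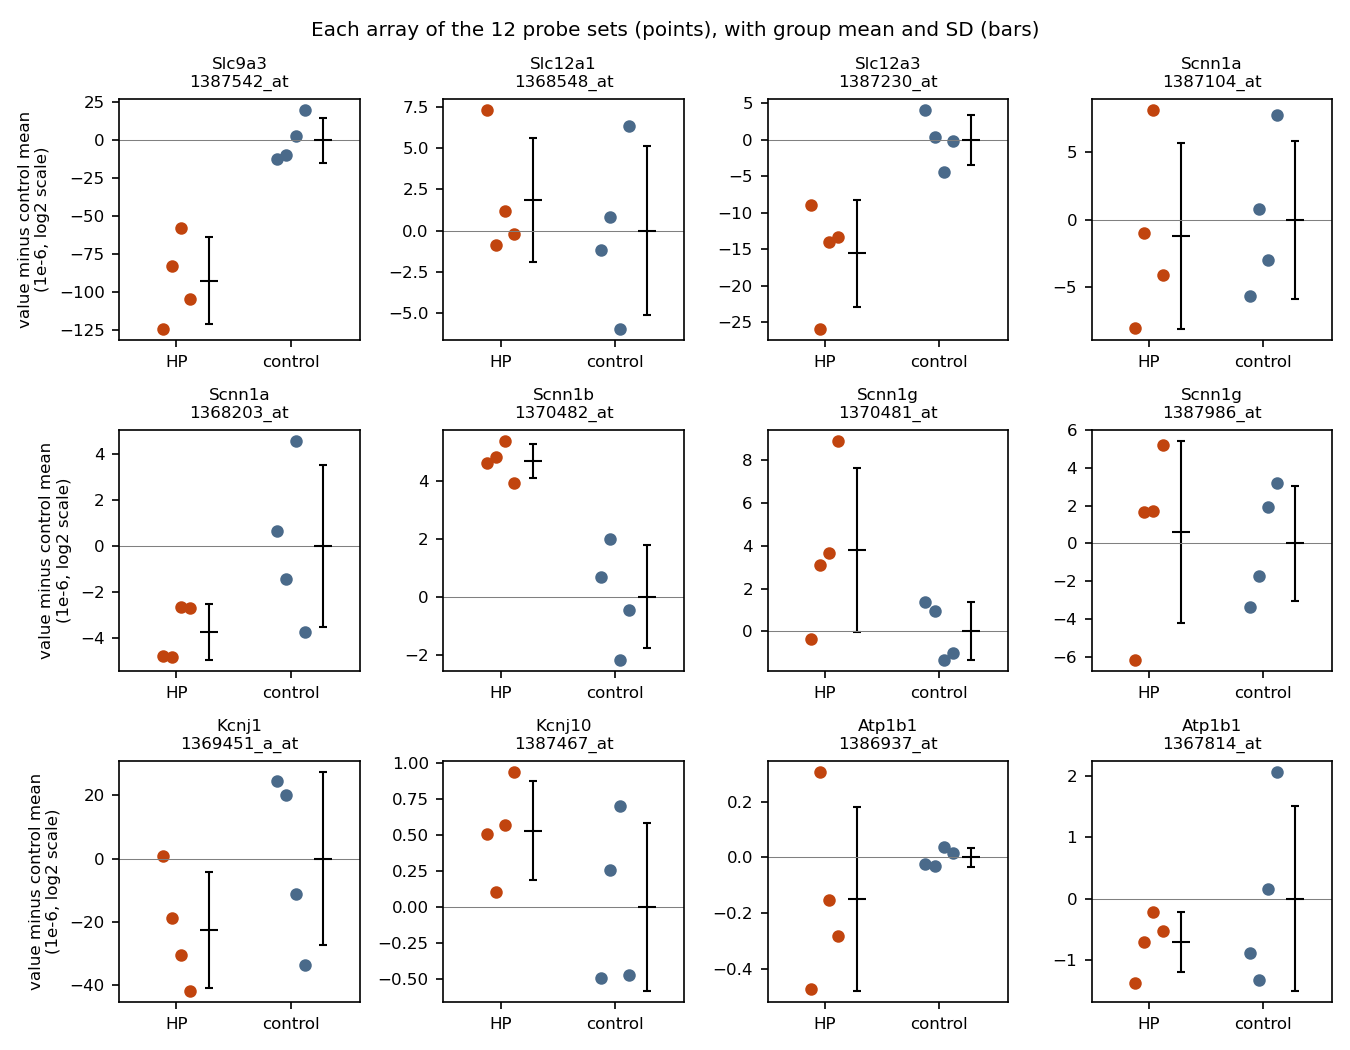
Value of each array minus the control mean, in millionths of a log2 unit, for the 12 probe sets. Points are single arrays (HP left, control right), bars are the group mean and SD (n = 4 each), and each panel has its own axis. Slc9a3, Slc12a3 and Scnn1b are the panels in which the diets do not overlap.

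In the proximal tubule, Slc9a3 encodes NHE3, the luminal sodium-proton exchanger, which is also made in the thick ascending limb. On probe set 1387542_at the 4 HP arrays lay at -125, -82.9, -57.8 and -105 millionths, and the 4 control arrays at -12.4, -10.0, 2.45 and 20.0. All HP arrays were below all control arrays, and the gap between the diets was wider than the range within the control group. The difference was -92.5 ± 16.2 millionths (SE, n = 4 each), a standardized difference of -4.04 (95% interval -5.77 to -2.31). The adjusted p was 0.0273 in limma, and an exact two-sided permutation test gave 0.0286, the smallest value that 4 arrays against 4 allow. This second p is unadjusted, and every probe set without overlap between the diets gets it. Rank products, the method the study used, also placed Slc9a3 among the lower probe sets, with an FDR of 0.00136. It was the only member called by rank products, which called 2.32% of all probe sets lower and 3.41% higher. Rank products order probe sets by the size of their differences, so on DFW values they follow the spread of a probe set. The SD of Slc9a3 was at percentile 94.1 of all tested probe sets, so this FDR was not read as separate support. The limma call was lost without any 1 of 7 of the 8 arrays, with an adjusted p of up to 0.0825, and it held without HP replicate 3 (0.0207). It was also lost without moderation of the variances (0.0526), in the fit with a replicate block (0.0835) and after median centring (0.975). The direction was the same in all of these fits. Median centring moved the median of all probe sets downward, so it could not test a lower direction.

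The thick ascending limb reabsorbs sodium, potassium and chloride together through NKCC2, the product of Slc12a1 and the target of loop diuretics. Its probe set 1368548_at lay at 7.32, -0.898, 1.18 and -0.178 millionths on HP arrays and at -1.18, 0.813, -5.99 and 6.35 on control arrays. The diets overlapped widely. The difference of 1.86 ± 3.17 millionths gave a standardized difference of 0.41, and its interval of -1.32 to 2.15 leaves room for a change in either direction (adjusted p = 0.813).

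Kcnj1 encodes ROMK, which recycles potassium in the thick ascending limb and secretes it in the collecting duct. Probe set 1369451_a_at lay at 0.873, -18.8, -30.4 and -41.9 millionths on HP arrays and at 24.5, 20.0, -11.0 and -33.4 on control arrays. The control arrays were themselves spread more widely than the HP arrays, with control replicates 1 and 2 high and 3 and 4 low, and the diets overlapped. HP replicate 1 was also the highest of its group. The standardized difference was -0.97 (-2.70 to 0.76, adjusted p = 0.504). After quantile normalization the same probe set was called lower (standardized difference -2.94, adjusted p = 0.0121 in limma), so its call depended on the scaling. That scaling called 10013 of 19903 tested probe sets lower, with a median standardized difference of -2.01. The call was thus not read as a result about Kcnj1.

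In the distal convoluted tubule, Slc12a3 encodes NCC, the thiazide-sensitive sodium-chloride cotransporter. HP arrays lay at -8.92, -26.0, -14.1 and -13.4 millionths on probe set 1387230_at, against 4.12, 0.381, -4.39 and -0.116 on control arrays. Every HP array was below every control array, with HP replicate 2 the lowest. The difference was -15.6 ± 4.05 millionths and the standardized difference -2.72 (-4.45 to -0.99). The unadjusted p of 0.00504 became 0.0822 after adjustment over all probe sets, so Slc12a3 was not called. The exact permutation test gave an unadjusted 0.0286, as for any probe set without overlap. Rank products gave an FDR of 0.116. Without any 1 array the adjusted p was 0.0693 to 0.174. After median centring the diets overlapped, with a standardized difference of -1.09. After quantile normalization the probe set had no spread and was not tested.

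Kcnj10 encodes Kir4.1, a basolateral potassium channel of the same segment that helps to set the membrane voltage. Values on 1387467_at were 0.511, 0.104, 0.567 and 0.938 millionths on HP arrays and -0.489, 0.261, 0.699 and -0.472 on control arrays. All HP arrays were above the control mean, but 2 control arrays lay within the HP range. The standardized difference was 1.11 (-0.62 to 2.84, adjusted p = 0.567). The mean level of this probe set was low, at 6.31 in both diets, where the lowest value on the arrays was 5.58. It was the only member probe set dropped in the fit that left out the lowest means. With no detection calls, whether it detects the transcript cannot be read from these values. The lack of a call was thus not read as a result about Kir4.1.

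The connecting tubule and collecting duct take up sodium through ENaC, built of an alpha, a beta and a gamma subunit from Scnn1a, Scnn1b and Scnn1g. The beta subunit rose on the values as deposited. Its direction turned under the other scalings, which moved the median of all probe sets downward. On probe set 1370482_at the HP arrays lay at 4.60, 4.83, 5.38 and 3.93 millionths and the control arrays at 0.675, 1.995, -2.20 and -0.471. All HP arrays were above all control arrays and close to each other (SD 0.600 in HP and 1.78 in control kidneys). The difference was 4.68 ± 0.939 millionths, a standardized difference of 3.53 (1.80 to 5.26), with an adjusted p of 0.0442 in limma. The exact permutation test gave an unadjusted 0.0286, which only restates the lack of overlap. The call was near its threshold. It was lost without any 1 of 7 arrays (adjusted p up to 0.109) and held without control replicate 2 (0.0450). Rank products, which follow the spread, gave an FDR of 0.679 for this probe set, whose SD was at percentile 33.1 of all tested. The limma adjusted p was 0.0688 without moderation and 0.130 with the replicate block. The standardized difference was -1.22 after quantile normalization and -0.86 after median centring. These scalings moved the median difference of all tested probe sets to -65.1 and -61.3 millionths, far more than 4.68. The turn thus cannot be read as a result about Scnn1b alone.

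Neither of the other ENaC subunits passed the test. The alpha subunit gene Scnn1a had HP arrays at -8.04, -0.954, 8.15 and -4.08 millionths and control arrays at -5.62, 0.813, -3.00 and 7.80 on 1387104_at, a standardized difference of -0.19 (-1.92 to 1.54, adjusted p = 0.927). Its other probe set, 1368203_at, lay at -4.80, -4.86, -2.67 and -2.70 on HP arrays and at 0.646, -1.46, 4.58 and -3.76 on control arrays, a standardized difference of -1.42 (-3.15 to 0.31, adjusted p = 0.321). On 1387104_at the diets overlapped fully, and on 1368203_at all HP arrays lay below the control mean while control replicate 4 lay inside the HP range. Across the 8 arrays the 2 Scnn1a probe sets had a Pearson r of -0.19, so they did not move together. For the gamma subunit gene Scnn1g, HP arrays lay at -0.363, 3.09, 3.66 and 8.92 millionths and control arrays at 1.37, 0.959, -1.33 and -0.995 on 1370481_at, a standardized difference of 1.33 (-0.40 to 3.06, adjusted p = 0.351). On 1387986_at HP arrays lay at -6.20, 1.68, 1.71 and 5.23 and control arrays at -3.36, -1.73, 1.91 and 3.18, a standardized difference of 0.15 (-1.58 to 1.88, adjusted p = 0.944). HP replicate 1 was the lowest and HP replicate 4 the highest of the HP arrays on both, and the r between the probe sets was 0.50. Whether the subunits differed in their response was not tested.

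Atp1b1 encodes the beta1 subunit of the Na+/K+-ATPase, which is needed to bring the pump to the basolateral membrane of every segment. Neither of its probe sets passed the test. HP arrays lay at -0.473, 0.308, -0.153 and -0.283 millionths and control arrays at -0.0225, -0.0325, 0.0375 and 0.0175 on 1386937_at, with a standardized difference of -0.64 (-2.37 to 1.10, adjusted p = 0.863). On 1367814_at HP arrays lay at -1.39, -0.718, -0.228 and -0.528 and control arrays at -0.898, -1.34, 0.163 and 2.07, with a standardized difference of -0.63 (-2.36 to 1.10, adjusted p = 0.707). On the first the control arrays were packed between the HP arrays, and on the second control replicate 4 stood highest.

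**Figure D2:**
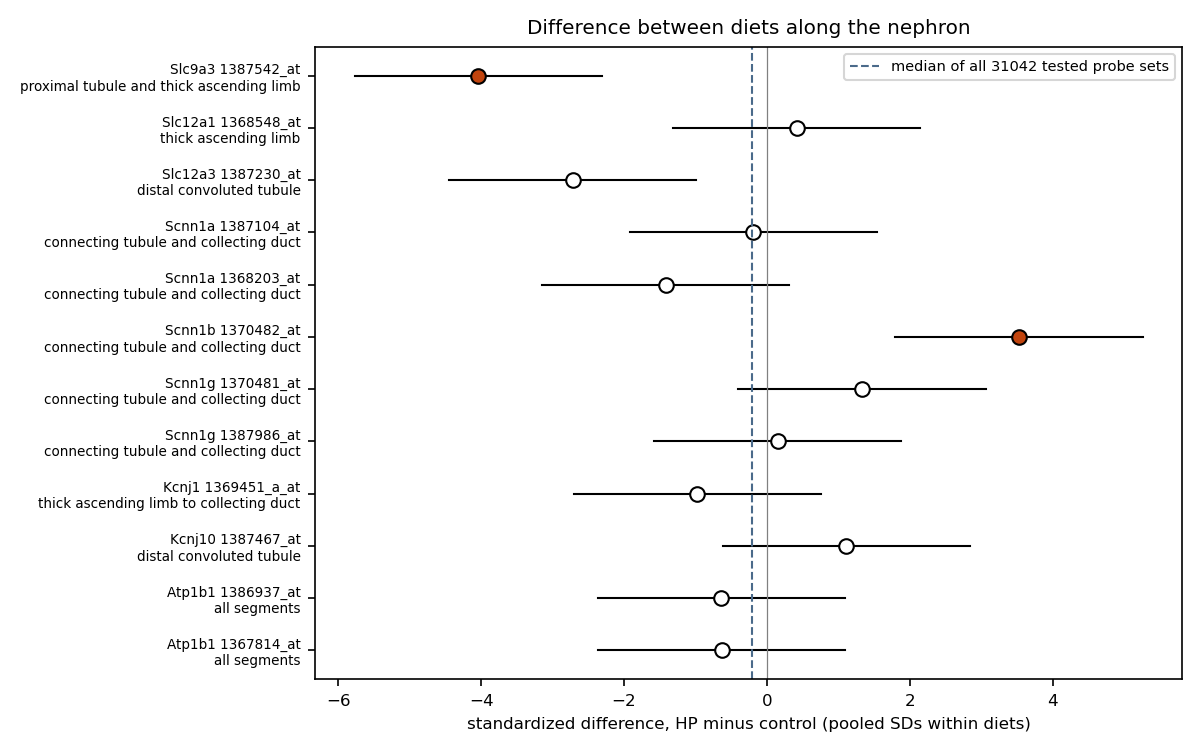
Standardized difference (HP minus control, in pooled SDs within diets) of each probe set with its 95% interval, n = 4 arrays per diet. Genes follow the order in which they are named at the start of the text. The interval leaves out the error in the SD. Filled points passed the adjusted threshold in limma (Slc9a3 at -4.04 and Scnn1b at 3.53), open points did not, and the dashed line is the median of all tested probe sets (-0.21). Both other scalings moved the median of all probe sets downward, and Scnn1b turned below 0 under them.

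Along the tubule, the call in the lower direction thus fell on the proximal exchanger and the call in the higher direction on an ENaC subunit of the collecting duct. The direction of this subunit turned under scalings that moved the median of all probe sets downward. The intervals of Slc9a3 and Slc12a3 lay below 0, that of Scnn1b lay above 0, and those of the other 9 probe sets included 0. Differences between segments were not tested.

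The bases before the transcription start of these 3 genes are shown because theirs are the probe sets in which the diets did not overlap. RefSeq promoters (build GRCr8) were found for 7 of the 9 genes, and the 250 bases before the start were searched on both strands for GGGCGG (the GC box, bound by Sp1), AGAACA (a half-site of the glucocorticoid and mineralocorticoid receptors) and TATAAA (the TATA box). Capitals mark the matches, and a GC box on the other strand reads CCGCCC. Each sequence runs 5′ to 3′ along its gene. Slc9a3 lies at chr1:30996003-30996252 on the minus strand, Slc12a3 at chr19:10675051-10675300 on the minus strand and Scnn1b at chr1:185861126-185861375 on the plus strand.
Slc9a3: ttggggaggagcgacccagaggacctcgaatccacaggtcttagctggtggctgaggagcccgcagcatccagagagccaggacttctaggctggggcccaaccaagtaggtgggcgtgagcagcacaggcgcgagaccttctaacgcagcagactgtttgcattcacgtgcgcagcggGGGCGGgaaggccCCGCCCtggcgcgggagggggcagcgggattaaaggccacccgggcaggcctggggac
Slc12a3: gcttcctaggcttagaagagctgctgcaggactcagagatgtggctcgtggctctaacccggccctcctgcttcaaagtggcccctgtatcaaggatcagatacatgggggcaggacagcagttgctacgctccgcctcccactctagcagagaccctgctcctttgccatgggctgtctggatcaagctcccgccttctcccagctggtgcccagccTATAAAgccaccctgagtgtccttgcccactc
Scnn1b: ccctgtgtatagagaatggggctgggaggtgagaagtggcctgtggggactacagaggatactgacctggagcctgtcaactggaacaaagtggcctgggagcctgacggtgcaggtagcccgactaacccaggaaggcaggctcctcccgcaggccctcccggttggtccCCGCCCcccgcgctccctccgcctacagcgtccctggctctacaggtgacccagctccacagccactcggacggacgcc

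Slc9a3 held 2 GC boxes, which began at positions -71 and -58 from the start. Scnn1b held 1 at -79, and Slc12a3 held none but had a TATA box at -32. None of these 3 windows held AGAACA. Of 33469 rat promoters of the same length, 30.5% held a GC box, 17.5% an AGAACA and 12.9% a TATAAA. Among the members whose diets overlapped, Scnn1g had GC boxes at -114 and -83 and Kcnj10 at -243 and -148. Kcnj1 has 2 annotated starts, with AGAACA at -27 before 1 of them and at -201 and -23 before the other. Neither start of Slc12a1 had any of these letters. A match describes the letters only, and the box common to Slc9a3 and Scnn1b stood before genes whose values differed in opposite directions as deposited.

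Other genes of the same transport systems were taken from 6 lists. Of 63 listed genes 52 were measured, each by its probe set of highest mean level. In HP kidneys 1 rose and 1 fell, with 5 genes lying wholly below and 1 wholly above the control arrays and a median standardized difference of -0.41. Over all tested probe sets, 2.95% were called higher, 1.13% lower, 7.09% lay wholly above and 5.81% wholly below, and the counts of calls were near these shares. Both calls were lost with the replicate block and after median centring.

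Among 10 measured partners of the basolateral pump (other ATPase subunits and the FXYD proteins that tune it), 1 rose and 9 did not pass. Fxyd5, which encodes dysadherin, a pump regulator that also weakens cell adhesion, lay between 508 and 1088 millionths on HP arrays and between -38.4 and 21.8 on control arrays. Its difference of 823 ± 121 millionths was larger than that of any member (standardized difference 4.80, adjusted p = 0.0176). Fxyd2, the gamma subunit typical of kidney, had a standardized difference of -1.41 (adjusted p = 0.386).

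None of 7 other sodium and chloride carriers and channels passed. Bsnd, which encodes barttin, the partner of the basolateral ClC-K chloride channels, lay between -28.6 and -15.7 millionths on HP arrays and between -13.5 and 19.2 on control arrays, without overlap (standardized difference -1.96, adjusted p = 0.177). Slc12a2, which encodes the basolateral cotransporter NKCC1, was at -0.80 (adjusted p = 0.596).

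None of 12 other potassium channels and proton-potassium pumps passed. Kcnq1, a voltage-gated potassium channel of the proximal tubule brush border, came closest. It lay between -24.4 and -12.4 millionths on HP arrays and between -7.06 and 4.77 on control arrays (standardized difference -3.06, adjusted p = 0.0592). Kcnma1, the pore of the flow-sensitive BK channel of the collecting duct, was at 1.34 (adjusted p = 0.347).

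The WNK kinases act through SPAK and OSR1 to phosphorylate and activate NCC and NKCC2. Of 8 measured genes of this pathway 1 fell, with a median standardized difference of -1.29. Cab39l, which encodes the MO25 beta scaffold that activates SPAK and OSR1, lay between -6.15 and -2.94 millionths on HP arrays and between -0.757 and 1.22 on control arrays (difference -4.78 ± 0.854, standardized difference -3.96, adjusted p = 0.0333). Stk39, which encodes SPAK, lay wholly below on 1387059_at (-2.23, adjusted p = 0.142) but not on its second probe set 1370614_s_at (-0.63, adjusted p = 0.695). Wnk1 was at 0.45 (adjusted p = 0.797).

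Aldosterone acts through the mineralocorticoid receptor to raise ENaC activity in the collecting duct. None of 9 genes of aldosterone signalling and ENaC control passed. Prss8, which encodes prostasin, a protease that activates ENaC, lay between -17.0 and -2.69 millionths on HP arrays and between -4.06 and 1.81 on control arrays (standardized difference -2.21, adjusted p = 0.137). Hsd11b2, which shields the receptor from glucocorticoids, was at 1.08 (adjusted p = 0.509). Sgk1, a kinase induced by aldosterone, varied far more between rats than the members did (difference -1057 ± 1905 millionths, standardized difference -0.39). Sgk1, Wnk1, Stk39 and Fxyd2 are named here as well-known genes of these systems and were chosen after their values were seen.

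None of 6 scaffolds and regulators of NHE3 passed. All 6 had a standardized difference below 0 (median -0.79), against 57.7% of all tested probe sets, and the list was not tested as a set. Those not named below ran from -0.35 (Ezr) to -0.97 (Dpp4). Nherf2 (older symbol Slc9a3r2), which encodes the scaffold NHERF2, lay between -38.0 and -23.7 millionths on HP arrays and between -18.1 and 17.3 on control arrays (-2.35, adjusted p = 0.118). Pdzk1, another PDZ scaffold of the brush border, was at -1.70 (adjusted p = 0.235).

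**Figure D3:**
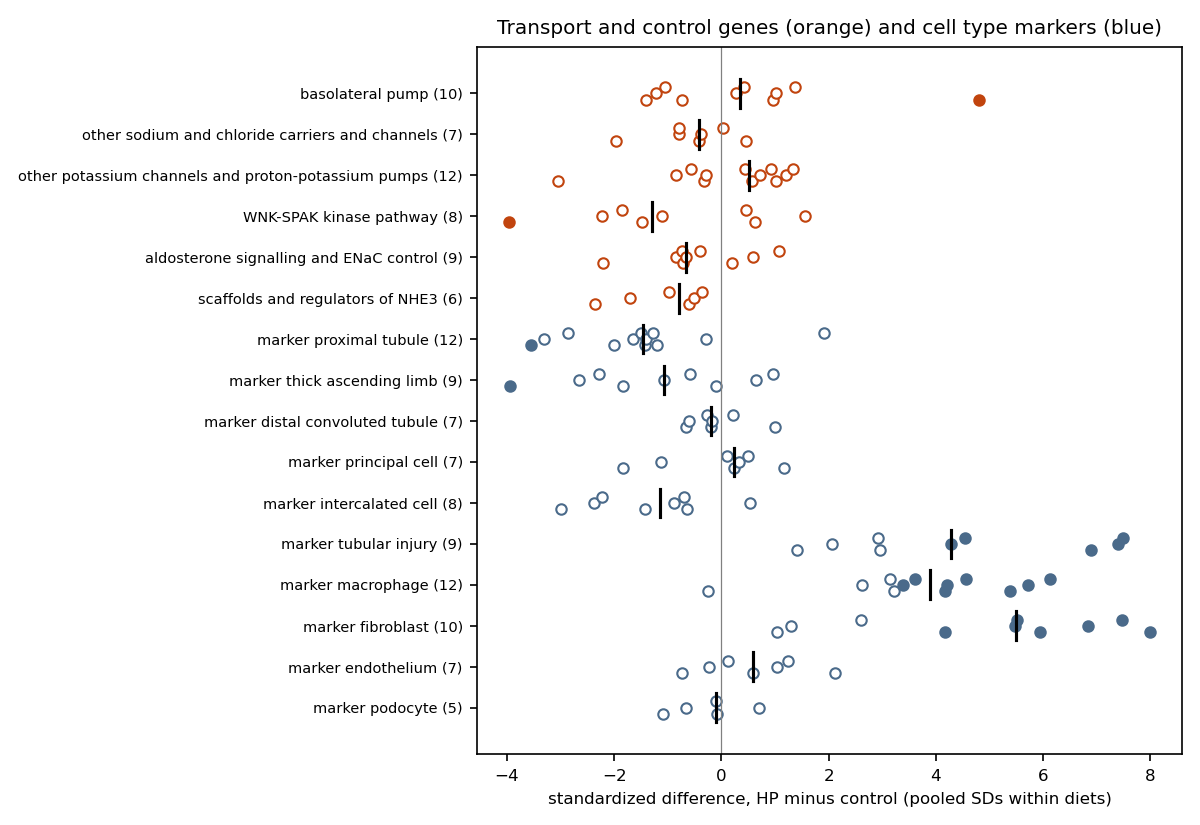
Standardized difference (HP minus control, in pooled SDs within diets) of each measured gene in the 6 transport and control lists (orange) and the 10 cell type marker lists (blue), with the number of genes in brackets. Filled points passed the adjusted threshold in limma and black bars are list medians. The tubular injury, macrophage and fibroblast markers lie mostly to the right of the transport lists.

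Mean levels of the single segment markers ran from 9.63 to 13.9 for the proximal tubule, 6.54 to 13.5 for the thick ascending limb, 6.16 to 11.5 for the distal convoluted tubule, 6.56 to 11.3 for principal cells and 6.88 to 11.3 for intercalated cells. The lowest value on the arrays was 5.58, and with no detection calls the presence of the lowest markers cannot be read from these levels. A standardized difference below 0 was found for 11 of 12 proximal tubule markers (median -1.47), against 57.7% of all tested probe sets. So it was for 7 of 9 thick ascending limb markers (median -1.06) and 7 of 8 intercalated cell markers (median -1.15). Wholly below the control arrays lay 3 of 12 proximal tubule, 3 of 9 thick ascending limb and 2 of 8 intercalated cell markers. For principal cells it was 1 of 7 and for the distal convoluted tubule 0 of 7, against 5.81% of all probe sets. Of the proximal tubule markers 1 fell, Slc27a2 (-3.55, adjusted p = 0.0389), which encodes a fatty acid carrier. Slc22a6, the organic anion transporter OAT1, had the next smallest p and was at -2.01 (adjusted p = 0.168). Miox (-3.31, adjusted p = 0.307) and Fbp1 (-2.85, adjusted p = 0.524), named after their values were seen, lay wholly below, as Slc27a2 did. The summed proximal tubule values ran from -230 millionths to -39.8 on HP arrays and from -80.0 to 137 on control arrays, so the groups overlapped. The widest spread in that sum was that of Slc5a12, named after its values were seen (-95.5 to 16.9 on HP arrays and -72.6 to 106 on control arrays). Of 9 thick ascending limb markers 1 fell, Casr (-3.94, adjusted p = 0.0289), the calcium-sensing receptor, while Cldn10, a paracellular sodium channel, was at -2.65 (adjusted p = 0.0963). Their sums ran from -279 to -106 on HP arrays and from -146 to 69.8 on control arrays. There the widest spread was that of Cldn16, also named after its values were seen (-160 to -4.64 on HP arrays and -130 to 101 on control arrays). The part of segment size or cell number in the Slc9a3 and Slc12a3 values was not tested.

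Downstream, none of 7 distal convoluted tubule markers passed (median -0.19), with Calb1 at 1.00 (adjusted p = 0.490) and Klk1 at -0.67 (adjusted p = 0.668). Their sums ran from -159 to 102 millionths on HP arrays and from -176 to 187 on control arrays, so the groups overlapped. The widest spreads in that sum were those of Slc8a1 (-56.2 to 23.8 on HP arrays and -68.8 to 120.2 on control arrays) and Trpm7 (-44.7 to 63.9 on HP arrays and -37.3 to 33.0 on control arrays), which were named after their values were seen. Trpm7 is not particular to this segment, and Trpm6 was not measured. Pvalb and Atp2b4, also named after their values were seen, had low mean levels (6.30 and 6.16). The sum and median thus describe the listed genes and not the segment. None of 7 principal cell markers passed (median 0.24), with Avpr2, the vasopressin receptor, at -1.83 (adjusted p = 0.204) and Tfcp2l1 at 1.16 (adjusted p = 0.419). Principal cells carry ENaC, and their summed markers ran from -68.3 to 252 on HP arrays and from -91.9 to 186 on control arrays. None of 8 intercalated cell markers passed, with Slc26a4, which encodes pendrin, at -2.99 (adjusted p = 0.0629) and Atp6v1g3 at -2.37 (adjusted p = 0.115). Their sums ran from -194 to -50.1 on HP arrays and from -57.7 to 84.1 on control arrays.

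Markers of injury and of cells between the tubules rose in the same kidneys. Of 9 tubular injury markers 5 rose, led by Vim (7.50, adjusted p = 0.00583) and Havcr1 (7.41, adjusted p = 0.00603), and their sums ran from 356300 to 549500 millionths on HP arrays and from -18640 to 25710 on control arrays. Havcr1 made up most of that sum, with 331500 to 514100 on HP arrays and -16840 to 18870 on control arrays. Krt8, Krt18, Lcn2 and Vcam1, named after their values were seen, differed by only 31.7, 22.4, 28.3 and 74.1 millionths, and Krt8 alone of these passed. Of 12 macrophage markers 8 rose, with Aif1 at 6.13 (adjusted p = 0.00860) and Mpeg1 at 5.72 (adjusted p = 0.0105), and their sums ran from 13580 to 26260 on HP arrays and from -1281 to 2371 on control arrays. Of 10 fibroblast markers 7 rose, with Col3a1 at 8.00 (adjusted p = 0.00507) and Fn1 at 7.47 (adjusted p = 0.00589), with sums of 15980 to 21330 on HP arrays and -2203 to 1155 on control arrays. The diets did not overlap in any of these 3 sums, and their part in the Scnn1b, Fxyd5 or other values was not tested. None of 7 endothelial markers passed (Eng 2.12, adjusted p = 0.160, and Plvap 1.25, adjusted p = 0.433, with sums of -3.44 to 16.2 on HP arrays and -21.3 to 21.4 on control arrays), and none of 5 podocyte markers did (Nphs1 -1.10, adjusted p = 0.446, and Synpo 0.70, adjusted p = 0.649, with sums of -102 to 5.70 and -115 to 158 on HP and control arrays).

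For each member, the 2 genes with the most similar pattern were found by Pearson r over the 8 arrays, which share the diet difference. Slc9a3 was closest to Letm1 (0.99), a mitochondrial cation exchanger, and Susd3 (0.99). Slc12a3 was closest to Pepd (0.98), a dipeptidase, and Slc13a3 (0.97), a dicarboxylate carrier of the proximal tubule. Scnn1b was closest to Cd86 (0.98), a costimulatory protein of antigen-presenting cells, and Lyve1 (0.98), a hyaluronan receptor of lymphatic vessels and some macrophages. Lyve1 rose in HP kidneys (standardized difference 4.46, adjusted p = 0.0216) and Cd86 was at 3.09 (adjusted p = 0.0572). Letm1 (-3.50, adjusted p = 0.0455) and Susd3 (-3.49, adjusted p = 0.0405) fell.

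For the members whose diets overlapped, the closest genes were Spdef (0.96) and Cdcp1 (0.95) for Slc12a1, and Rbm27 (0.96) and Ddah2 (0.96) for Scnn1a. They were Nkain1 (0.96) and Zfp11 (0.96) for Scnn1g, and Rps6kb1 (0.99) and Ncbp2 (0.98) for Kcnj1. For Kcnj10 they were Kat7 (0.95) and Csgalnact1 (0.95), and for Atp1b1 Abcf3 (0.96) and Gpt2 (0.95). None of these passed the test between diets. With 8 arrays and this many genes, an r this high describes these arrays only.

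**Figure D4:**
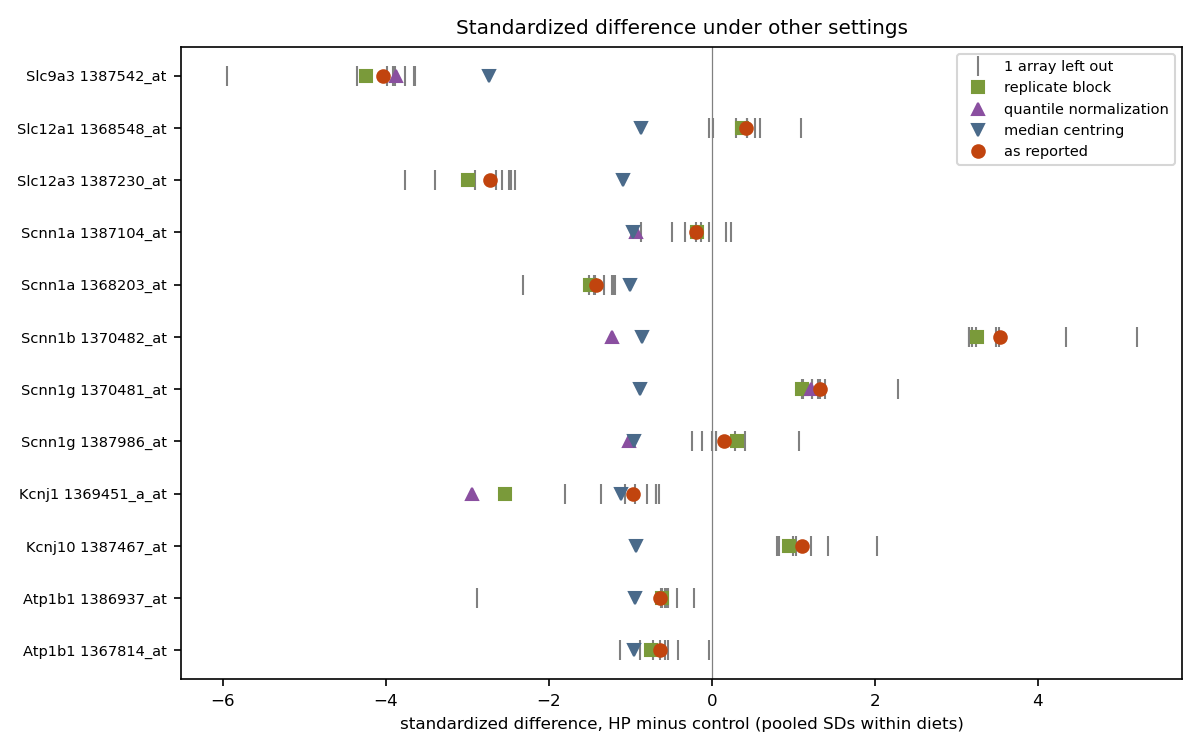
Standardized difference (HP minus control, in pooled SDs within diets) of each probe set as reported (circles), with 1 array left out (grey ticks), with the replicate number as a block (squares), after quantile normalization (triangles up) and after median centring (triangles down). The 6 probe sets with no triangle up had the same rank on all 8 arrays and so no spread after quantile normalization. Scnn1b changes side under both scalings and Slc9a3 stays below 0 in all. The scalings moved the median of all tested probe sets to -2.01 (quantile) and -0.94 (centring), so this contrast does not set the 2 genes apart.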

How the data were processed

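The authors quantified the scanner files of the 8 arrays with DFW in R and Bioconductor and deposited 1 table of values, which were taken as log2. The base of the logarithm, background correction and detection calls were not given in the sources used here. DFW uses the spread over arrays to weight probes and shrinks small differences, so sizes are not fold changes, and there is no measure of depth. Gene symbols came from the platform annotation. The 57 Affymetrix control probe sets were left out. The remaining 31042 were fitted with limma 3.58.1 (lmFit and eBayes, R 4.3.3; prior degrees of freedom 0.77) on 4 HP and 4 control arrays, with Benjamini-Hochberg adjustment over all of them and a threshold of 0.05. The standardized difference and its interval used the unmoderated pooled SD, while the limma p-values used moderated variances. Single probe sets had an exact two-sided permutation test over 70 arrangements (scipy 1.17.1). Rank products (the study's method) used 16 pairs, 1000 permutations and an FDR under 0.05. Limma and rank products were tested on simulated data, and the permutation test was not. The simulation for rank products gave all features the same SD, so it could not test them under the unequal spreads of DFW values. Named genes were every member, the genes past the threshold in a transport list (up to 4, otherwise the 2 of smallest p), the 2 of smallest p in each marker list, and the 2 genes most like each member, with exceptions named in the text. The members and lists were chosen with earlier results of these data known. Promoters were RefSeq sequences of GRCr8. Alternatives were no moderation, trended and robust moderation, array weights, a replicate block, quantile normalization, median centring, leaving out the lowest 25% of means, 1 probe set per gene, rank products, and each array left out. Scan dates or batches were not analysed here.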

Additional observations from a re-analysis of the deposited data

How the results depend on the processing

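Trended and robust moderation and array weights changed no call of a member. The number of members called higher was 0 without moderation, with the replicate block, after quantile normalization, after median centring and by rank products, against 1 as reported, and 0 to 1 with 1 array left out. The number called lower was 0 without moderation, with the replicate block and after centring, 2 after quantile normalization, and 0 to 1 with 1 array left out. Members wholly above the control arrays numbered 0 after quantile normalization or centring and 1 to 2 with 1 array left out. After centring 1 member, Slc9a3, was wholly below (2 to 3 with 1 array left out). The median standardized difference of the members ran from -0.65 to 0.10 with 1 array left out, and was -1.12 after quantile normalization and -0.96 after centring, against -0.41 as reported. List genes called higher numbered 0 with the replicate block and after centring and 0 to 1 with 1 array left out. List genes called lower numbered 0 without moderation, with the block and after centring, 17 after quantile normalization, 2 without the lowest 25% of means and with 1 probe set per gene, 4 by rank products, and 0 to 1 with 1 array left out.

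Median centring turned Slc12a1 to -0.86, Scnn1b to -0.86, Scnn1g to -0.88 and -0.96 and Kcnj10 to -0.93. Quantile normalization turned Scnn1b to -1.22 and Scnn1g (1387986_at) to -1.02. With 1 array left out, Slc12a1 ran from -0.0363 to 1.09, Scnn1a (1387104_at) from -0.86 to 0.24 and Scnn1g (1387986_at) from -0.25 to 1.07. Array medians differed by up to 65.1 millionths, more than most differences between diets, and centring moved the median difference of all probe sets to -61.3 millionths, against -0.22 as reported. Quantile normalization moved it to -65.1 and called 490 probe sets higher and 10013 lower of 19903 tested. It left 11139 probe sets, 6 of them members, with no spread, and these were not tested in it.

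With the replicate block, Slc9a3 had a standardized difference of -4.24 (adjusted p = 0.0835) and Scnn1b 3.25 (adjusted p = 0.130), and 254 probe sets were called higher and 115 lower, against 915 and 350 without it. Deviations of same-numbered arrays correlated at 0.12, 0.09, 0.06 and 0.0015. HP replicates 1, 2 and 3 each correlated best with the control of the same number, and HP replicate 4 with control replicate 3. The labels give no source for a pairing and not every correlation was over 0.1, so the numbers were not treated as pairs. No array of a member stood far enough from its group to pass Dixon's test. The number of arrays and the shrinkage by DFW limit what small differences can show.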
